A study of Rattus norvegicus with 29 samples.

Results

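Chromatin accessibility in the subventricular zone (SVZ) was compared between rats given a binge of methamphetamine (METH) and rats given saline. The comparison rests on the 5 SVZ libraries, 3 saline and 2 METH, of the 29 ATAC-seq libraries of the series, chosen by their labels. ATAC-seq uses a transposase that inserts sequencing adapters into open chromatin, so the number of reads over an open chromatin region (OCR) measures how accessible it is. The animals were adult male Sprague-Dawley rats without genetic modification. They received 4 intraperitoneal injections, 2 h apart, of METH at 10 mg/kg or of saline at 1 mL/kg, and the brains were taken on the day after the last injection. The SVZ was punched from frozen slices with a tissue puncher, so each library is a mixture of cells. The library names in the peak lists hold a number that was read as the animal. By this reading the 5 SVZ libraries came from 5 animals, so n counts animals here. A prefix of these names has 2 spellings, which were taken as library batches 1 and 2, though no label names a batch. By this inference saline replicate 1 belonged to batch 1 and the 4 others to batch 2. METH replicate 2 carried an additional tag that no source used here explains. The remaining 24 libraries, from Ammon's horn (CA), the dentate gyrus (DG) and the nucleus accumbens (NAc) of 8 animals, entered the fit to estimate the spread.

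The SVZ lines the lateral ventricle and is a site of neurogenesis in the adult rodent brain. Its neural stem cells share many traits with astrocytes, and they give rise to neuroblasts that migrate to the olfactory bulb and to oligodendrocyte precursors. It lies against the striatum, whose neurons are mostly inhibitory. METH releases dopamine and other monoamines from nerve terminals and at binge doses damages striatal dopamine terminals. Accessible regions include promoters and enhancers, where transcription factors displace nucleosomes.

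The SVZ libraries held 7.55 to 11.4 M counts in OCRs (1 M is 1000000), and those of the other regions 9.20 to 19.4 M. Over log2 values of all 98237 OCRs, pairs of SVZ libraries had Pearson correlations of 0.815 to 0.910, a description across OCRs, which are not independent replicates. The lowest values, 0.815 to 0.874, all involved saline replicate 3. This library correlated best, at 0.923, with the NAc library of its own animal. The main counts, the medians and many of the values of named OCRs are therefore also given without it. Saline replicate 2 and METH replicate 2 also had an NAc library as their best partner, with 0.922 and 0.911, so closeness to NAc was not limited to saline replicate 3.

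No OCR passed the threshold for a differentially accessible region (DAR) between METH and saline in SVZ. This threshold asked for more than a 1.5-fold difference, up or down, at a false discovery rate (FDR) under 0.001 by edgeR's quasi-likelihood test, and 0 of 98237 OCRs (0%) reached it. The count was also 0 without saline replicate 3. The study reported SVZ DARs in both directions at these thresholds, most of them more accessible with METH. Its normalization also removed variation unrelated to tissue or treatment, a step that the main fit here left out. An unadjusted p under 0.05 was reached by 1249 OCRs with higher METH values (1.27%) and 2159 with lower METH values (2.2%). Without saline replicate 3 these were 469 (0.477%) and 2670 (2.72%), so the predominance of lower METH values became larger. The balance turned without saline replicate 1, which leaves batch 2 alone, with 4271 OCRs with higher and 1592 with lower METH values. Without METH replicate 1 there were 545 with higher and 780 with lower METH values. In simulated counts with the same library sizes, 0 of 100 OCRs with a 2-fold change and 11 of 100 with a 4-fold change were called, with 0 false calls. Few of the 98237 OCRs changed in this simulation, and all regions shared 1 mean per OCR. It therefore describes that setting and gives no general limit of detection.

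In 10385 OCRs (10.6%) the lower METH value exceeded the highest saline value, and in 9445 OCRs (9.61%) the higher METH value was under the lowest saline value. Without saline replicate 3 these were 16692 (17%) and 18604 (18.9%), where 1 saline library fewer has to be passed. The estimated fold change was above 1.5 towards METH in 10760 OCRs (11%) and towards saline in 8226 OCRs (8.37%). Over all OCRs 49.5% had a log2 fold change above 0. The log2 fold changes had a median standard error of 0.51, so a 1.5-fold difference was little more than 1 standard error. Treatment took 24.8% of the variance among the 5 libraries (exact permutation test over 10 assignments, p = 0.4). Without saline replicate 3 it took 35.2% (exact permutation p = 0.333, the smallest possible with these 4 libraries). Random splits into groups of these sizes take about as much on average.

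The 10 OCRs with lower METH values and the lowest unadjusted p had saline means of 15.7 to 26.5 counts per M (CPM) and METH means of 5.03 to 12.9 CPM. They were taken from 8808 OCRs with a mean of at least 2 CPM, no overlap between the groups and the same direction with each library left out, so their values in SVZ are a description and support no claim. Coordinates here are those of the rat build rn6, and gene annotation of that build was not used here. The OCR chr10:14546870-14547980 had 18.1, 19.5 and 14.8 CPM in saline replicates 1 to 3 and 5.30 and 7.11 CPM in METH replicates 1 and 2. The log2 fold change was -1.50 (SE 0.28, edgeR FDR 0.99997), and -1.60 without saline replicate 3. The highest METH value, 7.11 CPM, lay under the lowest saline value, 14.8 CPM, an order that the choice required. At chr15:33774508-33775448 the saline libraries held 23.1, 29.6 and 24.6 CPM and the METH libraries 8.67 and 13.6 CPM (log2 fold change -1.21, SE 0.24). At chr16:19885628-19886826 they held 16.9, 15.9 and 20.4 CPM against 6.45 and 8.66 CPM (log2 fold change -1.23, SE 0.25). These 3 OCRs were also past the DAR threshold with DESeq2, which called 5 OCRs in all (0.00509%).

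METH replicate 1 was the lower of the METH libraries at each of these 10 OCRs. The widest gap between the METH libraries was at chr3:149028215-149029797, with 20.6, 14.4 and 12.5 CPM in saline and 3.56 and 8.55 CPM in METH, and its log2 fold change was -0.89 without METH replicate 1 and -2.15 without METH replicate 2. The largest estimated decrease was at chr4:83136663-83138033, with 22.8, 15.0 and 10.3 CPM in saline and 3.56 and 6.49 CPM in METH (log2 fold change -1.67, SE 0.37). There saline replicate 3 was the lowest saline library, and the estimate without it was -1.91. The remaining 5 lay at chr5:173138938-173140515, chr1:197482074-197483213, chr10:109756821-109757905, chr1:126402560-126403830 and chr9:17641199-17642083. All 10 were past the DAR threshold when 5 RUVr factors, which estimate unwanted variation from the residuals, were added to the fit. That fit called 195 OCRs, 191 of them lower with METH.

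These OCRs were chosen by SVZ values and by a p whose spread was estimated with the other regions as well. The comparison with those regions is therefore not independent of the choice. In each of the 10 OCRs both METH libraries of SVZ lay below all 27 other libraries of the series. The order was found in 1159 of all OCRs (1.18%), and in 1143 of the 8808 OCRs from which the 10 were drawn (13.0%). The log2 fold changes of METH against saline at these OCRs in NAc, DG and CA ran from -0.46 to 0.38. Against the mean effect of these regions the SVZ effect gave unadjusted p-values of 1.2e-05 to 0.0040 in edgeR's test of the difference, whose FDRs were all about 1. This test took all libraries as independent, although each SVZ animal also gave NAc, DG and CA libraries. With the animal as a block, the unadjusted p-values by edgeR at the 10 OCRs were 1.7e-05 to 0.0075. Both versions share the SVZ values with the choice of the OCRs and are not independent of it. Over all OCRs 2908 (2.96%) reached an unadjusted p under 0.05 without the block and 4123 with it. In either version 0 OCRs (0%) passed the DAR threshold. Without saline replicate 3 the test without the block gave 708 OCRs with higher and 2672 with lower SVZ effects at an unadjusted p under 0.05. It gave 0 DARs. The 10 OCRs were wide, with a median of 1169.5 bases against 662 over all OCRs, and 3 of them belonged to the most accessible decile.

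The 10 OCRs with higher METH values and the lowest unadjusted p were narrower and less accessible than those with lower values. Their widths had a median of 570 bases, none belonged to the most accessible decile, and saline means ran from 1.14 to 11.3 CPM. At chr14:63082081-63083176 the saline libraries held 6.75, 5.65 and 5.20 CPM and the METH libraries 15.9 and 12.1 CPM (log2 fold change 1.25, SE 0.30, edgeR FDR 0.99997). At chr14:13837027-13837592 they held 1.69, 1.13 and 2.48 CPM against 8.96 and 6.29 CPM (log2 fold change 2.12, SE 0.61), the largest estimate of the 10. Here both METH libraries held a peak in the authors' lists and no saline library did. At chr12:63075-64071 the saline libraries held 17.1, 6.60 and 10.2 CPM and the METH libraries 45.3 and 22.4 CPM (log2 fold change 1.58, SE 0.45). All libraries of the other regions lay between 2.15 and 7.42 CPM at this OCR, so the level in SVZ was high in most libraries and highest in METH replicate 1. Without METH replicate 1 its log2 fold change was 0.99.

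The other 7 were chr1:39088943-39089432, chr14:45997567-45998297, chr2:78023600-78024067, chr16:86983104-86983593, chr15:70145265-70145657, chr1:47289826-47290429 and chr13:93977909-93978482. Both METH libraries of SVZ lay above all 27 other libraries of the series in 5 of the 10 OCRs. The order was found in 1488 of all OCRs (1.51%), and in 1488 of the 8271 from which the 10 were drawn (18.0%). No OCR of the 10 was a DAR under any alternative run. Without saline replicate 3 the log2 fold changes of the 10 OCRs were 1.17 to 2.43.

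**Figure D1:**
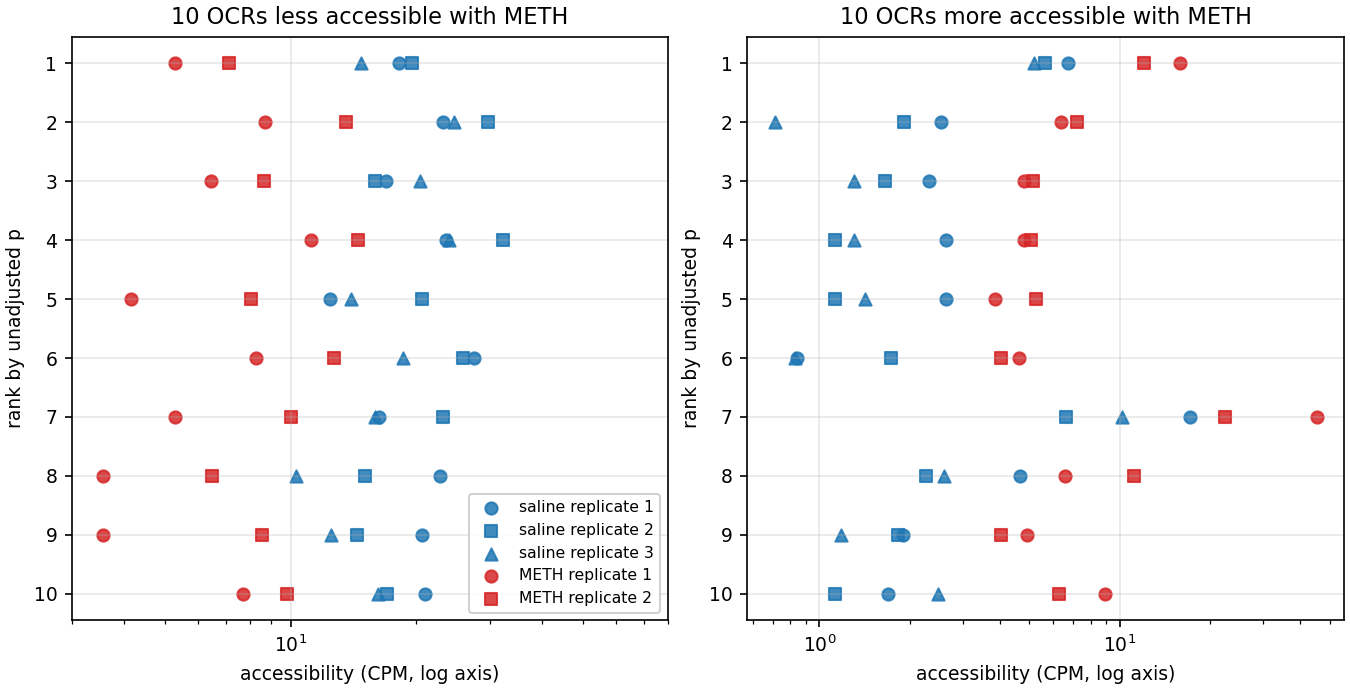
Accessibility in CPM (log axis) of the 10 OCRs with lower (left) and the 10 with higher (right) METH values and the lowest unadjusted p, 1 row per OCR and 1 point per library, in blue for saline and red for METH. The choice required that the colours do not overlap. METH replicate 1 is the lowest point in every row on the left, and the scale on the right reaches down to 0.709 CPM.

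A few OCRs had no reads, or almost none, in both METH libraries of SVZ. At most 3 counts in both METH libraries with a saline mean of at least 3 CPM was found in 4 OCRs, and the reverse in 0. These counts are not balanced, since the reverse demands absence in all 3 saline libraries. At chr4:99901122-99902181 the saline libraries held 18.4, 24.7 and 33.8 CPM and both METH libraries 0 CPM. With 3 counts per library taken as the limit that a count of 0 allows, the level was at least 82.8-fold lower with METH. At chrX:66601544-66602781 the saline libraries held 8.76, 14.2 and 8.86 CPM and the METH libraries 0 CPM, at least 34.3-fold lower. At chr3:45260874-45261339 they held 5.91, 4.17 and 7.80 CPM against 0 and 0.103 CPM, at least 19.3-fold lower. At chr15:106503982-106504488 they held 9.71, 2.69 and 5.08 CPM against 0 CPM in both, at least 18.8-fold lower. The OCRs on chromosomes 4 and 15 were the other DARs of DESeq2, and the OCR on chromosome 4 was the only DAR when the 5 SVZ libraries were fitted alone.

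The absence of reads at these 4 OCRs was shared by all brain regions of the same animals. The METH libraries of SVZ came from animals 24 and 25, and all 4 OCRs had at most 3 counts in every NAc, DG and CA library of these animals as well. In the libraries of the 6 other animals the OCR on chromosome 4 had 110 to 869 counts outside SVZ. The METH animals 20 and 21 held 355 to 869 counts there. The OCR on chromosome 15 had 0 counts in NAc, DG and CA of animal 15, which received saline, and of animal 21, which received METH. Treatment and animal cannot be told apart in SVZ.

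The absence was narrow at 1 of the 4 OCRs. The neighbours of the OCR on chromosome 3, 436 and 684 bases away, overlapped between the groups, with log2 fold changes of 0.47 and 0.11. A neighbour of the OCR on chromosome X, 1600 bases away, held 2.00, 1.13 and 2.36 CPM in saline and 0 CPM in both METH libraries. A neighbour of the OCR on chromosome 15, 1889 bases away, held 2.74, 2.00 and 2.48 CPM in saline and 0 and 0.206 CPM in METH. The nearest neighbours of the OCR on chromosome 4 were over 10 kb away and overlapped between the groups. The sequence of these OCRs in the animals was not analysed here.

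**Figure D2:**
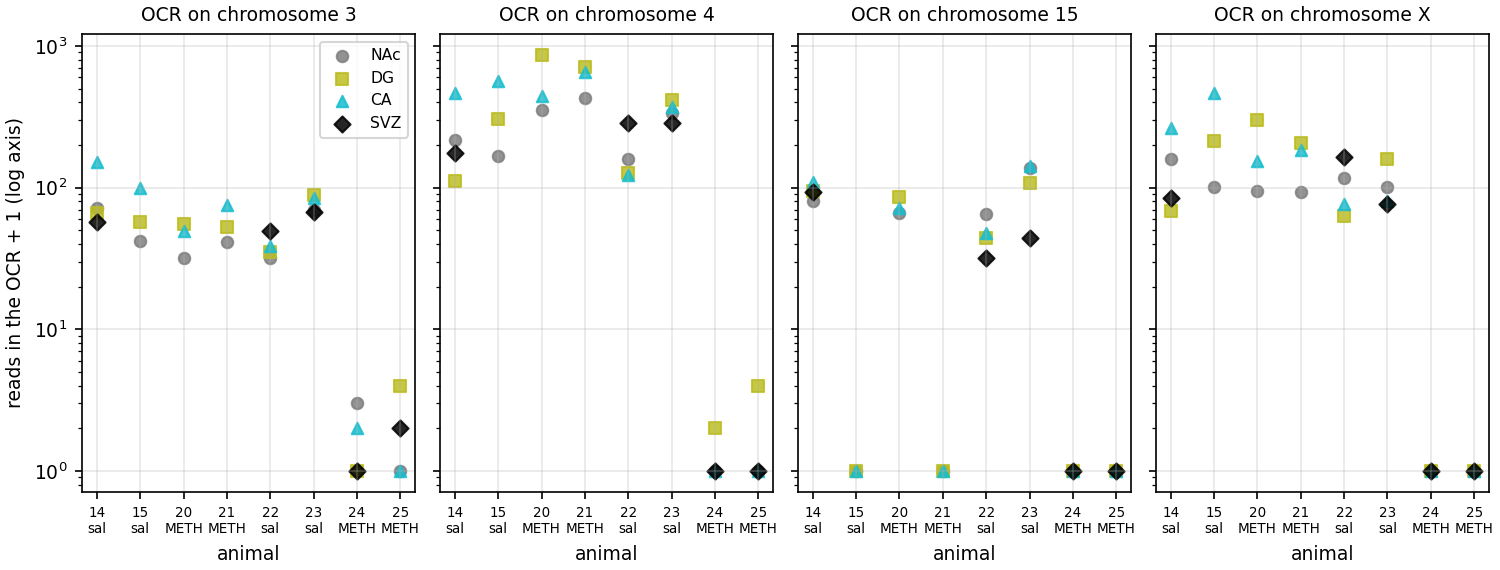
Reads in each of the 4 OCRs with at most 3 counts in both SVZ METH libraries, plus 1, on a log axis, by animal (number and treatment) with 1 point per brain region. All regions of animals 24 and 25 lie at or near the bottom, and on chromosome 15 animals 15 and 21 do so too.

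At another place METH replicate 1 alone was low. The OCR chr1:11971352-11972262 held 153, 191 and 178 CPM in saline, 6.17 CPM in METH replicate 1 and 140 CPM in METH replicate 2. Its neighbour chr1:11974772-11975192 held 26.4, 25.1 and 21.0 CPM in saline, 0.963 CPM in METH replicate 1 and 16.5 CPM in METH replicate 2. These were the 2 DARs found without METH replicate 2, and no other alternative run called them. A further neighbour, chr1:11966397-11967202, held 31.2, 17.6 and 20.2 CPM against 5.01 and 11.5 CPM. Libraries outside SVZ held 88.8 to 208 CPM at the first OCR, including those of the animal of METH replicate 1, so the other libraries of that animal did not share the low value.

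The SVZ difference depended on how accessible an OCR was. OCRs were put into deciles by their mean level in the 24 libraries outside SVZ, so the grouping used no SVZ value. The most accessible decile had a median log2 fold change of -0.20, and 79.2% of its OCRs had lower METH values. In this decile 25.2% of OCRs had both METH libraries below all saline libraries and 2.21% had both above. The next decile had a median of -0.06, and the deciles under it ran from 0.00 to 0.09. The median log2 CPM of the most accessible decile was 5.43, 5.38 and 5.09 in the saline libraries and 5.06 and 5.09 in the METH libraries. Saline replicate 3 lay with the METH libraries, and without it the median log2 fold change was -0.29. Leaving out any 1 library gave -0.29 to -0.15. The same decile had medians of 0.07 in NAc, 0.22 in DG and -0.04 in CA under their own METH contrast, and the difference between regions was not tested.

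The decile accounted for 1173 of the 2159 OCRs with lower METH values at an unadjusted p under 0.05, and for 42 of the 1249 with higher values. It also held 868 of the 1159 OCRs in which both METH libraries were below all other libraries of the series. The share of a library's counts in the 10% most accessible OCRs moved with this result, at 52.3%, 51.2% and 47.1% in saline and 46.4% and 47.1% in METH (difference -3.46 percentage points, exact permutation test, two-sided, p = 0.2, adjusted p = 0.45 over 6 library measures, smallest possible p 0.1). Its part in the result was not tested. With this share as a covariate the counts at an unadjusted p under 0.05 were 4417 higher and 5227 lower, and 0 DARs. The least accessible decile had a median of 0.04 that took either sign as libraries were left out, from -0.19 to 0.31.

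**Figure D3:**
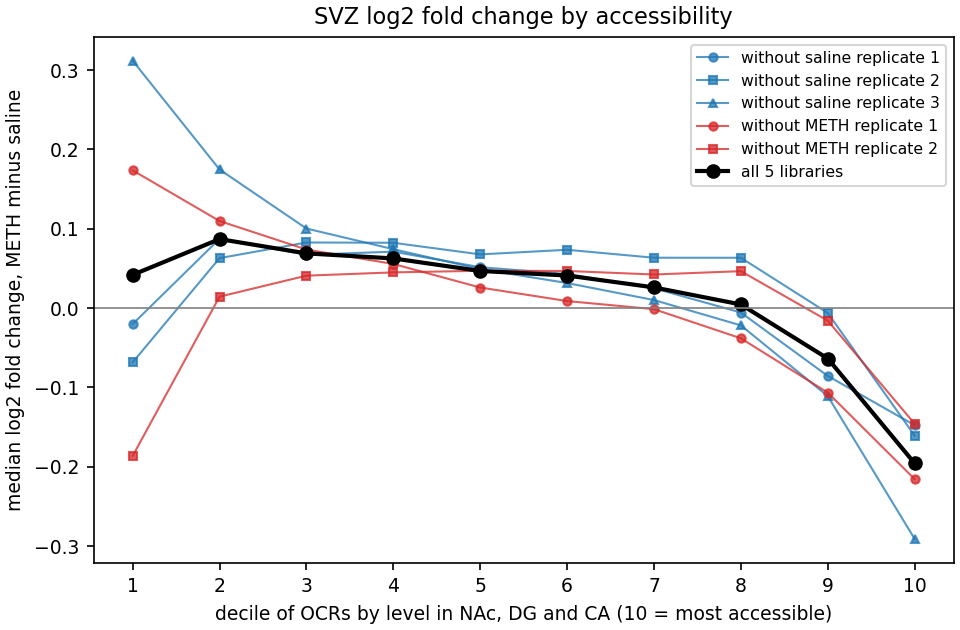
Median log2 fold change of METH against saline in SVZ (vertical axis) over deciles of OCRs ordered by their level in NAc, DG and CA (horizontal axis), with all 5 libraries (black) and with each library left out. All lines fall below 0 in the 2 most accessible deciles, to between -0.29 and -0.15 in the last, and they spread from -0.19 to 0.31 in the first.

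The medians also differed between chromosomes. Chromosome 10 had a median log2 fold change of -0.17 over 5923 OCRs, of which 67.6% had lower METH values. Chromosome 12 had a median of -0.16 over 2848 OCRs, and chromosome 2 one of 0.10 over 7508 OCRs. With each library left out in turn the ranges were -0.21 to -0.13, -0.20 to -0.13 and 0.07 to 0.12. In NAc and CA the medians of chromosomes 10 and 12 were between -0.01 and 0, and in DG they were -0.09 and -0.17, near the DG median of -0.15 over all OCRs. The level of the OCRs moved with these medians, with a median log2 CPM outside SVZ of 2.16 on chromosome 10 and 2.14 on chromosome 12, the highest of the autosomes, and of 1.86 on chromosome 2, the lowest. Its part in the result was not tested.

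The share of counts on chromosome 10 was 6.85%, 7.16% and 7.08% in the saline libraries and 6.60% and 6.31% in the METH libraries. Libraries outside SVZ held 6.57% to 7.35%, so METH replicate 2 lay below this range and METH replicate 1 within it. On chromosome 2 the shares were 6.73%, 6.58% and 6.79% in saline and 6.997% and 7.12% in METH. The METH shares lay above every saline share for 6 chromosomes and below for 6, with overlap for 10. The exact permutation p of chromosome 10 was 0.1, the smallest that 3 against 2 libraries can give, and 0.275 after adjustment over 22 chromosomes. The chromosome medians were looked at after other values had been seen.

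**Figure D4:**
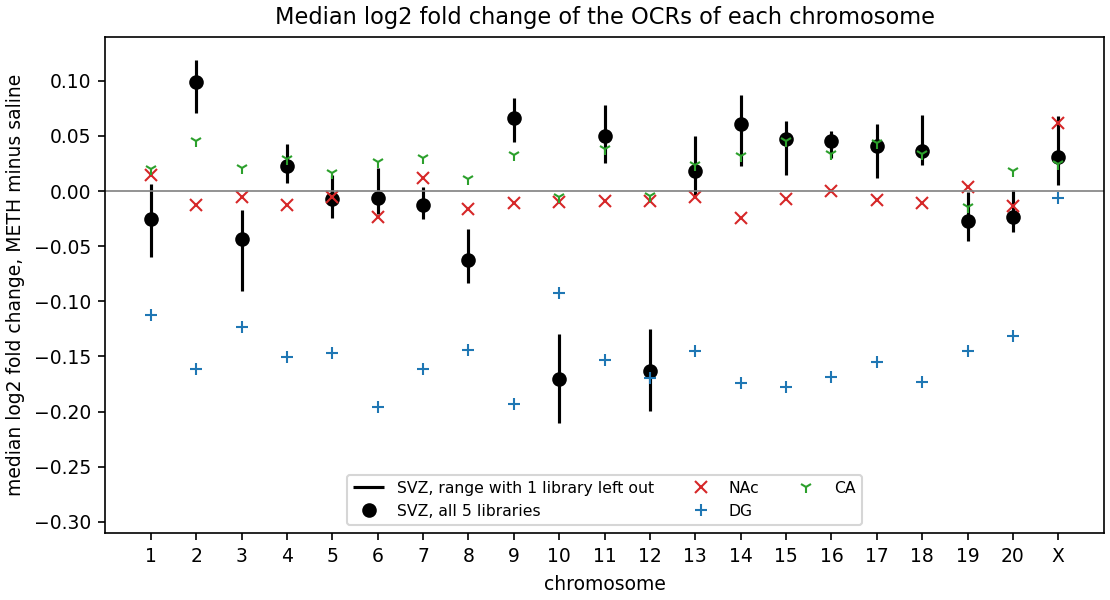
Median log2 fold change of METH against saline over the OCRs of each chromosome, for SVZ with all 5 libraries (black points) and with 1 library left out (black lines, lowest to highest), and for NAc, DG and CA (crosses and marks). Chromosomes 10 and 12 lie at -0.17 and -0.16 in SVZ and chromosome 2 lies at 0.10, and the Y chromosome, with 9 OCRs, is not drawn.

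The punched tissue was described with OCR sets that set NAc apart from the hippocampus (DG and CA). They were chosen in saline NAc, DG and CA libraries only. The 7380 OCRs that were higher in NAc than in the hippocampus had a median log2 CPM of 1.69, 1.75 and 2.79 in SVZ saline and of 1.70 and 2.23 in SVZ METH. Saline replicate 3 lay within the 2.12 to 2.89 of the NAc saline libraries, METH replicate 2 did so too, and the 3 others lay below. The median SVZ log2 fold change of this set was -0.21 with all libraries and 0.26 without saline replicate 3. It was 0.03 without METH replicate 1 and -0.54 without METH replicate 2, so the direction rested on single libraries. In this set 8 OCRs with higher (0.108%) and 47 with lower METH values (0.637%) reached an unadjusted p under 0.05, both below the 1.27% and 2.2% of all OCRs. In bulk tissue a change in the share of a cell type and a change of accessibility within cells cannot be told apart.

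The 1847 OCRs that were higher in the hippocampus than in NAc had a median log2 CPM of 0.89, 0.71 and 0.55 in SVZ saline and of 0.99 and 1.01 in SVZ METH. Both METH libraries were above all saline libraries, and all 5 were below the hippocampal saline libraries, which lay between 1.30 and 2.83. The median log2 fold change was 0.34, with 0.27 to 0.43 as libraries were left out and 0.27 without saline replicate 3. Higher METH values were found in 1354 OCRs and lower in 493, and 23.7% of the set had both METH libraries above all saline libraries, against 10.6% of all OCRs. Of the set 58 OCRs with higher (3.14%) and 2 with lower METH values (0.108%) reached an unadjusted p under 0.05, against 1.27% and 2.2% of all OCRs. Saline replicate 3 was the lowest library here and the highest in the NAc set.

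**Figure D5:**
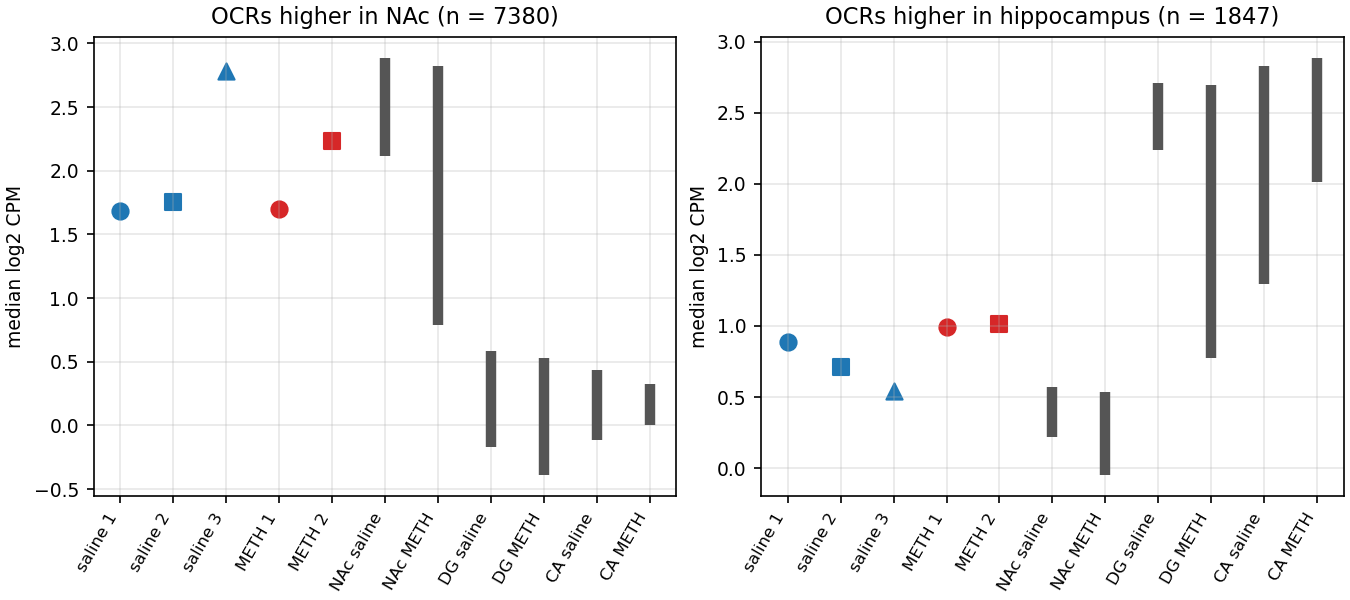
Median log2 CPM of OCRs higher in NAc (left, n = 7380) and of OCRs higher in hippocampus (right, n = 1847), as 1 point per SVZ library and as bars from the lowest to the highest library of each other group. Saline replicate 3 lies within the NAc bars on the left at 2.79, and both METH points are above the 3 saline points on the right.

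The peak lists, called by the authors in each library, held 51445, 63592 and 50732 peaks in the saline libraries and 66042 and 59094 in the METH libraries. The difference of 7312 peaks, 5049.5 without saline replicate 3, was within the spread between libraries (exact permutation test, two-sided, p = 0.3, adjusted p = 0.45 over 6 library measures). The median fold enrichment of peaks over local background was 5.15, 5.15 and 5.39 in saline and 4.95 and 4.96 in METH. METH libraries lay below all saline libraries in this measure (exact permutation p = 0.1, the smallest possible, adjusted p = 0.45). Median peak width was 343, 343 and 325 bases in saline and 325 and 314 bases in METH (exact permutation p = 0.3).

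Peaks found in both METH libraries and no saline library numbered 2138, and peaks found in all 3 saline libraries and no METH library numbered 511. These counts are not balanced, since the second demands 3 lists. With saline replicate 3 left out, 2 lists on either side, they were 2951 and 1950. The METH peaks had a median width of 237.5 bases and a median fold enrichment of 4.13, and the saline peaks 229 bases and 4.01. Of these 2138 peaks 59.6% overlapped an OCR of the consensus set, against 97.7% of the 511 saline peaks, and without saline replicate 3 the shares were 68.9% and 87.5%. Libraries of NAc, DG and CA held on average 30.005% to 45.4% of the METH peaks and 54.3% to 84.8% of the saline peaks. With saline replicate 3 left out they held 32.4% to 45.2% and 50.6% to 68.2%. In METH replicate 1 a total of 11838 peaks lay outside the consensus set and 82.1% overlapped it, the lowest share of the 5 lists, while the 4 other lists had 87.8% to 90.6%. A peak outside the consensus set has no count in the OCR table, so these peaks were not part of the fold changes above.

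Genes could be named for 814 OCRs, which the study aligned with human regions that hold trait-associated variants and paired with a human gene. The pairing places an OCR near a gene's human counterpart and does not show which gene it regulates. Of the 814 OCRs 328 had higher and 486 had lower METH values, with a median log2 fold change of -0.08, and of -0.10 without saline replicate 3. Both METH libraries lay below all saline libraries in 108 (13.3%) and above in 56 (6.88%), against 9.61% and 10.6% of all OCRs. In the most accessible decile lay 161 of them (19.8%), and those had a median of -0.25. Lists of genes that fit the SVZ and the drug held 98 OCRs, all but the one named for the St18 locus from these 814. No OCR of these lists was a DAR, and 2 (2.04%) reached an unadjusted p under 0.05, against 3.47% of all OCRs.

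OCRs paired with astrocyte and stem cell genes leaned towards METH by small margins. The astrocyte list had 3 OCRs, all with higher METH values and a median log2 fold change of 0.41, which was 0.07 without saline replicate 3. The OCR at CLU (chr15:42655209-42655620) had overlapping groups and a log2 fold change of 0.22, which turned to -0.09 without saline replicate 3. The OCR between GFAP and KIF18B (chr10:91000546-91001236), next to the gene of the intermediate filament of astrocytes and SVZ stem cells, held 21.9, 9.30 and 5.67 CPM in saline and 18.0 and 14.6 CPM in METH. The groups overlapped, saline replicate 1 was the highest library, and the log2 fold change was 0.07 without saline replicate 3 and 1.12 without saline replicate 1. The OCR at DTNA (chr18:14508353-14509205), which encodes a part of the dystrophin complex, held 5.70, 4.34 and 2.01 CPM against 7.42 and 6.70 CPM (log2 fold change 0.81, SE 0.49). Among 9 OCRs of stem cell and neuroblast genes 7 had higher METH values, with a median of 0.13 and 0.11 without saline replicate 3. The largest estimate was at VCAN (chr2:18505795-18506561), the gene of the matrix proteoglycan versican, with 5.70, 7.99 and 8.27 CPM in saline and 14.8 and 8.66 CPM in METH (log2 fold change 0.68, SE 0.36, and 0.24 without METH replicate 1). A second OCR at VCAN had overlapping groups and a log2 fold change of 0.13, and of 0.07 without saline replicate 3. The smallest estimate of the list, -0.30 in log2 fold change, was at TBR1 (chr3:47685132-47685948), a transcription factor of cortical excitatory neurons, where the groups overlapped. Its direction rested on 1 library, with 0.32 without METH replicate 1 and -1.41 without METH replicate 2.

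In the oligodendrocyte and myelin list 3 of 5 OCRs had higher METH values, with a median of 0.11. The OCR at GPM6A (chr16:39717899-39719347), a membrane glycoprotein of the proteolipid family that neurons also express, held 17.4, 9.30 and 8.04 CPM in saline and 20.2 and 18.2 CPM in METH. Its log2 fold change was 0.73 (SE 0.34, unadjusted p = 0.039 by edgeR, FDR about 1), 0.53 without saline replicate 3 and 1.15 without saline replicate 1. A second OCR at this gene had a log2 fold change of -0.12, and of 0.02 without saline replicate 3. The St18 locus, named by the study for SVZ and encoding a zinc finger transcription factor, held 14.7, 4.69 and 4.96 CPM at chr5:12563213-12564343 in saline and 19.2 and 12.8 CPM in METH. Saline replicate 1 lay between the METH libraries there, and the log2 fold change of 0.98 was 0.73 without saline replicate 3 and 1.73 without saline replicate 1. A second OCR, paired with ST18 (chr5:12495571-12496159), had overlapping groups and a log2 fold change of 0.11, and of -0.0020 without saline replicate 3. Of the 7 OCRs at Hedgehog pathway genes, a pathway that maintains SVZ stem cells, 2 had higher and 5 lower METH values, with a median of -0.10. The 4 OCRs at PTCH1, the Hedgehog receptor, had log2 fold changes of -0.30 to 0.02 and overlapping groups, and those of 2 of them took either sign as libraries were left out, from -0.72 to 0.34.

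Microglia and immune genes showed no common direction. Of 11 OCRs 7 had higher and 4 lower METH values, with a median of 0.04. The largest estimate was 0.64 at RUNX1 (chr11:32839061-32839608), a transcription factor of blood and microglial cells, and the smallest was -0.43 at RGS1 (chr13:61070306-61070798), a regulator of G protein signalling in immune cells. Both OCRs overlapped between the groups. At RUNX1 the estimate was 0.37 without saline replicate 2 and 1.12 without saline replicate 1, and at RGS1 it was -0.76 without saline replicate 3 and between -0.23 and -0.21 without METH replicate 2, saline replicate 1 or saline replicate 2. At INPP5D (chr9:94788703-94789166), the gene of a microglial lipid phosphatase, the saline libraries held 2.85, 2.43 and 2.84 CPM and the METH libraries 3.95 and 3.71 CPM (log2 fold change 0.50, SE 0.35).

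The OCRs at genes of voltage-gated calcium channels, which couple electrical activity to calcium entry, had mostly lower METH values, none at an unadjusted p under 0.05. Lower METH values were found in 10 of 12 calcium channel OCRs, with a median of -0.41, and in 4 of them both METH libraries lay below all saline libraries, an order found in 9.61% of all OCRs. Without saline replicate 3 the median was -0.21, and over all libraries left out it ran from -0.62 to -0.21. The OCR at CACNA1A (chr19:25526429-25527355), the pore of P/Q-type channels, held 6.44, 8.69 and 5.79 CPM in saline and 3.56 and 4.64 CPM in METH (log2 fold change -0.77, SE 0.42). The OCR at CACNA2D3 with the lowest estimate (chr16:5721680-5722215), an auxiliary subunit, held 4.01, 3.74 and 7.80 CPM against 2.41 and 3.30 CPM (log2 fold change -0.85, SE 0.71, and -0.44 without saline replicate 3). Saline replicate 3 was the highest library there. All 4 OCRs at CACNA1I, the pore of a T-type channel, had lower METH values, with log2 fold changes of -0.72 to -0.24. The estimates of 2 of them were -0.25 and -0.01 without saline replicate 3, and another stood at -0.16 without METH replicate 1 and -1.66 without METH replicate 2. The highest estimate of the list was 0.17, at CACNA1C, the pore of an L-type channel, and it was -0.01 without saline replicate 3.

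Of 8 OCRs at genes of inhibitory neurons 3 had higher and 5 lower METH values, with a median of -0.16. The OCR at GAD1 (chr3:56861146-56862109), the gene of an enzyme that makes GABA, held 16.1, 10.1 and 14.1 CPM in saline and 9.34 and 7.83 CPM in METH (log2 fold change -0.64, SE 0.54). GABRB1, a GABA-A receptor subunit, had OCRs on both sides. The OCR chr14:38804098-38805271 held 6.65, 5.39 and 6.38 CPM in saline and 10.98 and 8.86 CPM in METH. The OCR chr14:38814789-38815751, about 10 kb away, held 26.9, 20.4 and 20.9 CPM in saline and 17.8 and 19.0 CPM in METH. The groups did not overlap at either OCR, and the log2 fold changes were 0.69 (SE 0.49) and -0.31 (SE 0.47). They were 0.72 and -0.36 without saline replicate 3, and the second was -0.17 without saline replicate 1.

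Glutamate receptor OCRs had a median of 0.15 over 5 OCRs, with the groups overlapping in each. Synaptic adhesion genes had 22 OCRs, 7 with higher and 15 with lower METH values, and a median of -0.11. Against this lean the OCR at TENM3 (chr16:46691605-46692125), the gene of the adhesion protein teneurin 3, held 5.59, 3.56 and 2.01 CPM in saline and 8.19 and 6.08 CPM in METH. Its log2 fold change was 0.93 (SE 0.38, unadjusted p = 0.020 by edgeR, FDR about 1), and 0.64 without saline replicate 3. OCRs at dopamine and cAMP signalling genes were split, 6 higher and 5 lower, with a median of 0.08. The OCR at RGS17 (chr1:42586267-42586828), which limits signalling by inhibitory G proteins, held 4.54, 5.91 and 5.79 CPM against 3.47 and 3.19 CPM (log2 fold change -0.70, SE 0.54). The 5 OCRs at activity-dependent genes had a median of 0.04. Among them the OCR at EGR3 (chr15:51757972-51758376), an immediate early transcription factor, held 7.07, 5.65 and 6.62 CPM in saline and 4.24 and 4.95 CPM in METH (log2 fold change -0.49, SE 0.55).

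Leaving out saline replicate 3 turned the direction of the activity-dependent list, whose median was then -0.18, and of no other list. The medians without it were 0.02 for the oligodendrocyte list, -0.12 for the Hedgehog list, 0.05 for the microglia list, -0.14 for the inhibitory neuron list, 0.12 for the glutamate receptor list, -0.14 for the synaptic adhesion list and 0.11 for the dopamine and cAMP list. Among the OCRs named in these lists the log2 fold change without it was 0.49 at DTNA, 0.78 at VCAN, 0.54 at INPP5D, -0.88 at CACNA1A, -0.61 at GAD1, -0.65 at RGS17 and -0.47 at EGR3.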

How the data were processed

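The authors ran the AIAP pipeline with default parameters on build rn6 and called peaks per library. They made a consensus set of OCRs with mergeBed. Part of each SVZ peak list lay outside this set, and the sources used do not say why. Neither the read counter nor the handling of the transposase offset is named in the sources used. Raw read counts for each OCR were deposited. The deposited peak lists hold fold enrichment as a ratio and −log10 p and q values from the authors' caller, used here to describe and filter peaks. Groups came from the labels. Animals and batches were inferred from a number and the spelling of a prefix in the library names of the peaks. METH and saline libraries were always of different animals, so replicate numbers did not pair samples.

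Counts of all 29 libraries in 8 groups were fitted with edgeR 4.0.16 in R 4.3.3 (upper-quartile sizes, trended dispersion, robust quasi-likelihood F test), and all 98237 OCRs passed filterByExpr. The study also used RUVr without giving the number of factors, so it was an alternative. Peaks were compared with bedtools 2.31.1 (minimum overlap 1 base). Log2 CPM used a prior count of 2. Single values per library were compared by exact permutation tests. NAc-high and hippocampus-high OCRs had a log2 fold change above 1 and FDR under 0.01 between saline NAc and the mean of DG and CA. Named OCRs were the 10 higher and 10 lower by the rule given in the text, the St18 and Gabrb1 loci, DARs found with 1 library left out, and OCRs of 11 gene lists (119 genes). Members and lists were chosen with earlier results of these data known. The OCRs without reads in METH, the chromosome medians, the order against all other libraries and the test against other regions were added after seeing the data. Alternatives were other normalizations, filters, covariates, DESeq2 1.42.0 and each library left out. The script was tested on simulated data. Counting error only is covered by the limit of 3 counts.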

Additional observations from a re-analysis of the deposited data

How the results depend on the processing

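The number of DARs, 0 in the main fit, was also 0 with TMM sizes, loess offsets, edgeR's likelihood ratio test, no filter and a filter at 1 CPM. The same held for the batch or the top-decile share as a covariate, batch 2 alone, 2 RUVr factors and each saline library left out. It was 1 with the SVZ libraries alone, 2 without METH replicate 2 (range 0 to 2 with each library left out), 5 with DESeq2 and 195 with 5 RUVr factors. The OCRs with higher METH values at an unadjusted p under 0.05 numbered 1249 in the main fit and 469 to 4271 with each saline library left out. They numbered 2063 with loess offsets, 2156 with the SVZ libraries alone, 2561 with the batch and 4271 in batch 2 alone. With the top-decile share there were 4417, with 2 RUVr factors 4748 and with 5 RUVr factors 8164. Those with lower values, 2159 as reported, numbered 5227 with the top-decile share, 5271 with 2 and 7860 with 5 RUVr factors, and 780 to 2853 with each library left out. Higher values made up 36.6% of these in the main fit, 43.1% with loess offsets, 30.4% with TMM sizes and 50.9% with 5 RUVr factors. The balance turned without saline replicate 1, with 72.8%, and the share was 14.9% without saline replicate 3. The cause of these shifts was not tested.

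With the replicate number as a block within SVZ there were 0 DARs, 509 OCRs with higher and 2802 with lower METH values at an unadjusted p under 0.05, a share of 15.4% higher. Only 2 numbers were shared, the deviations of same-numbered libraries correlated at 0.14 and -0.17, and no source ties them, so the numbers were not taken as pairs.

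The share of OCRs with an estimated fold change above 1.5 was 19.3% and ran from 20.5% to 29.2% with each library left out. Peaks in both METH and no saline library numbered 2951 without saline replicate 3 and 13250 without METH replicate 2, where 1 list decides, and peaks in all saline and no METH library 1950 and 1846. With libraries left out the median log2 fold change ran from -0.19 to 0.31 in the least accessible decile, from -0.54 to 0.26 in NAc-high OCRs, from -0.21 to 0.079 in the Hedgehog list, from -0.19 to 0.0031 in the activity-dependent list and from -0.18 to 0.15 in the dopamine and cAMP list. The 22 OCRs named by rank or locus had 1 direction in all 396 combinations with 18 settings, 13 of which passed the DAR threshold. The choice of 20 of them required this for each library left out, so that part was fixed by the choice. Batch 2 alone repeats the fit without saline replicate 1, and no filter repeats the main fit, so these settings add nothing. With 1 METH library left, its spread was assumed to equal that of the other groups. At 7.55 to 11.4 M counts and 5 SVZ libraries, the test called 0 of 100 simulated 2-fold changes, in a setting where few OCRs changed.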

Other observations

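Of the 814 OCRs paired with human genes, those with the lowest unadjusted p by edgeR were named after their values were seen. The lowest on the side of lower METH values were at CRTAC1, which encodes an extracellular matrix protein, PCNX1, DBN1, which encodes the actin-binding protein drebrin of dendritic spines, ATP2A2, which encodes a calcium pump of the endoplasmic reticulum, and TRIM33. At CRTAC1 (chr1:261668596-261670582) the saline libraries held 37.2, 36.8 and 37.6 CPM and the METH libraries 17.5 and 28.0 CPM (log2 fold change -0.71, SE 0.21, with -0.41 without METH replicate 1 and -1.09 without METH replicate 2). At DBN1 (chr17:9679254-9680685) they held 27.3, 20.6 and 21.2 CPM against 10.8 and 14.8 CPM (log2 fold change -0.85, SE 0.29). At ATP2A2 (chr12:39552873-39554863) they held 72.9, 67.2 and 50.3 CPM against 18.8 and 45.9 CPM (log2 fold change -0.97, SE 0.34, with -0.47 without METH replicate 1 and -1.76 without METH replicate 2). METH replicate 1 was the lowest library at each of the 3, and at TRIM33 the groups overlapped. On the side of higher METH values, the OCR between RN7SL7P and SAMD9 (chr4:28153563-28154552) held 3.06, 2.26 and 2.84 CPM against 6.84 and 5.26 CPM (log2 fold change 1.16, SE 0.40). The OCR at HCRTR2 (chr8:83316827-83317463), an orexin receptor gene, held 3.48, 2.35 and 1.77 CPM against 5.20 and 4.95 CPM (log2 fold change 1.00, SE 0.42). The FDR was about 1 for each. At an unadjusted p under 0.05, 7 of the 814 OCRs (0.860%) had higher and 35 (4.30%) lower METH values, against 1.27% and 2.2% of all OCRs. Of the 814 OCRs 19.8% lay in the most accessible decile, which held 1173 of the 2159 OCRs with lower METH values at that p.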
